A study of Mus musculus with 2 samples.

Results

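The Hox genes of the embryonic mouse ureter were read in explants cultured in plain medium or in medium with NOGGIN. NOGGIN is an extracellular antagonist that captures bone morphogenetic proteins (BMPs) before they reach a receptor. Every probe whose name in the scanner files is a Hox cluster letter and a number was taken. That gave 45 probes for 39 genes, of 39429 probes and 30011 named or unnamed features in all: 11 genes of the HoxA cluster, 10 of HoxB, 9 of HoxC and 9 of HoxD. The control ureters came from wild-type NMRI embryos of mixed sex at E13.75 (embryonic days) and were kept for 18 h on transwell membranes in medium alone. The NOGGIN ureters were of the same strain, genotype, stage and culture time, with 10 µg/ml NOGGIN in the medium. RNA of each condition (200 ng) was read on 2 two-colour arrays, each carrying 1 control and 1 NOGGIN sample, with the dyes exchanged between the arrays. Each condition therefore has n = 2. The labels do not say whether the pairs came from separate litters, so p-values do not reach beyond these samples. The variance behind them joins the spread between the 2 arrays with a variance shared over all genes. The labels also do not say how many ureters make up a sample.

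HOX proteins are homeodomain transcription factors that tell cells where they lie along the body axis. Their genes lie in clusters, and the number of a gene, its paralogue number, follows its place in the cluster: low numbers are active towards the head and high numbers towards the tail. Genes that share a number in different clusters are paralogues, copies of 1 ancestral gene, and their homeodomains are very alike. In the urogenital tract the group 11 genes are required for the kidney to form, Hoxb7 is active in the epithelium of the ureteric bud, and the group 13 genes pattern the hind end, where ureter, bladder and cloaca meet.

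The likeness of the paralogues matters for what a probe reads. A probe inside the homeobox, the stretch that encodes the homeodomain, falls on letters that paralogues share. To find such probes, 3 homeobox helix motifs, adjoining or overlapping pieces of the code for the DNA-reading helix with some letters left free, were searched on the probe strand. The motifs were chosen after the probe sequences were seen. At least 1 was found in 4 of the 45 Hox probes and in 33 of all 39429 probes (0.0837%). A probe without a motif may still lie elsewhere in the homeobox. The 3 probes shown here hold such letters. They are 60 bases long and written 5′ to 3′, with the motifs in capitals.

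Hoxc11, chr15:102787022-102787081, plus strand: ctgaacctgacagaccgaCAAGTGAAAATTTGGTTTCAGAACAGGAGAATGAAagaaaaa
Hoxc12, chr15:102768889-102768948, plus strand: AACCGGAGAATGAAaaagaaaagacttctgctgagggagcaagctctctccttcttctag
Hoxd10, chr2:74532280-74532339, plus strand: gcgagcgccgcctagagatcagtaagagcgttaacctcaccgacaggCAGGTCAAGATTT

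Positions are on mouse build mm9, as the file headers give it. Exon annotation of mm9 was not used here.

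The direction of the comparison is not settled by the sources. Every signed value is a log2 ratio with the sample that its dye label calls NOGGIN on top and the control below. By those labels the BMP target gene Id1 had log2 ratios of 2.21 and 2.08. In the authors' deposited table, whose titles set NOGGIN against control, Id1 has signed fold changes of -4.65 and -4.53, the opposite direction. Were the dyes labelled the wrong way round, all signs below would turn and the sizes would stay.

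Most of the Hox family gave signal in the cultured ureter. A probe counted as measured, or kept, if over 0.5 of its 4 spots stood well above background on each array, in either sample. By that rule 36 of 39 Hox genes and 41 of 45 Hox probes (91.1%) were kept, beside 75.2% of all probes. All 11 HoxA genes and all 9 HoxD genes were kept, with 9 of 10 HoxB genes and 7 of 9 HoxC genes. By position, 11 of 12 genes of paralogue numbers 1 to 4 were kept, 11 of 11 of numbers 5 to 8 and 14 of 16 of numbers 9 to 13. The genes left out were Hoxb1, a hindbrain gene, and Hoxc12 and Hoxc13 at the tail end of HoxC. The probes of Hoxc12 and Hoxc13 were well above background in no channel. That of Hoxb1 was above background in the control channel of array 2 alone, with signals over local background of 6.94 and 21.7 in the control samples and 10.4 and 9.86 in the samples labelled NOGGIN.

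Of the 36 kept genes, 35 were above background in all 4 samples. Hoxb13, known from the prostate and the tail end of the body, was the exception: it was above background in both control samples and in the sample labelled NOGGIN on array 1, not on array 2. Its local-background-subtracted signals were 44.2 and 105 in the control samples and 76.7 and 23.2 in those labelled NOGGIN, and its ratio is uncertain for that reason. Normalized log2 signals of the kept genes ran from 6.70 to 14.85. The brightness of a probe depends on its sequence, so these levels give no order among genes.

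**Figure D1:**
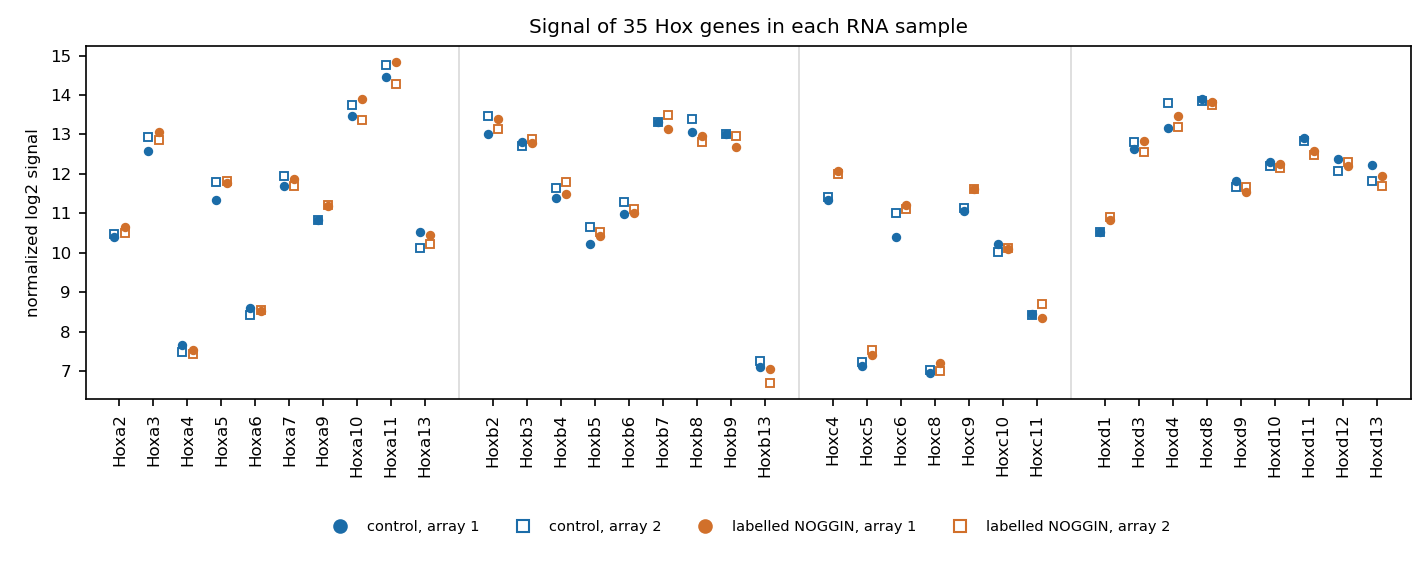
Normalized log2 signal (vertical axis) of 35 Hox genes (horizontal axis, by cluster and number) in the 2 control samples (blue) and the 2 samples labelled NOGGIN (orange), with circles for array 1 and open squares for array 2. For most genes the colours overlap; Hoxc4 and Hoxc9 are among those whose samples labelled NOGGIN both lie above both controls.

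No Hox gene passed either call in this comparison. By the size rule, at least 1.5-fold in one direction on both arrays, 0 of 36 Hox genes were called, beside 2.19% of all 22311 genes. In limma's moderated test adjusted by Benjamini-Hochberg over all genes, 0 of 36 had an adjusted p under 0.05, beside 0% of all genes. Unadjusted, 2 of 36 had a p under 0.05, beside 6.04% of all genes, so that count lies near the background. In bulk tissue, fewer cells of a type and less RNA per cell cannot be told apart.

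The values of the family were centred near 0. The median log2 ratio of the 36 genes was 0.01, with quartiles of -0.09 and 0.13, beside a median of -0.01 and quartiles of -0.11 and 0.10 over all genes. The family's median was 0.06 on array 1 and -0.02 on array 2, beside 0.02 and -0.05 for all genes. The mean of 27 genes lay within 0.25 of 0 and that of 34 within 0.5. On both arrays 9 of the 36 genes were above 0, beside 20.4% of all genes, and 9 were below 0, beside 23.3%. The other 18 had opposite signs on the 2 arrays.

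With 2 arrays these values are not evidence that the genes did not differ. The 95% interval of a gene's mean log2 ratio, from limma's moderated variance, reached a median of 0.42 to either side. The interval lay wholly within 1.5-fold for 20 of 36 genes and within 2-fold for 34. The exceptions at 2-fold were Hoxc4 and Hoxc6.

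**Figure D2:**
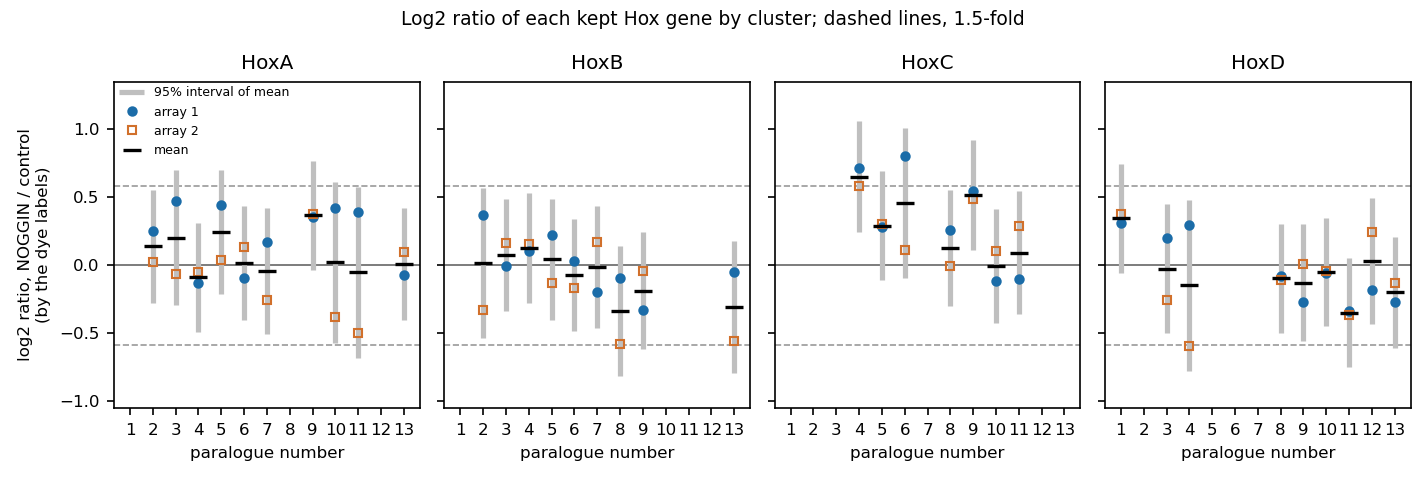
Log2 ratio of the channel labelled NOGGIN over the control channel (vertical axis) against paralogue number (horizontal axis) for 35 Hox genes, 1 panel per cluster. Blue circles are array 1, open orange squares array 2, black bars their mean and grey bars the 95% moderated interval; the HoxC means from number 4 to number 9 all lie above 0, and the mean of Hoxc4, 0.65, is the highest.

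HoxC held the highest ratios. Its 7 kept genes had a median of 0.29 (0.28 on each array), beside 0.02 for HoxA, -0.01 for HoxB and -0.09 for HoxD. These medians are descriptions of 7 to 11 genes, and their differences were not tested. The HoxC median is the mean of Hoxc5, a gene with a dim probe. That mean ran from 0.25 to 0.53 over the settings with both arrays. The 0.28 of each array came from different genes, Hoxc5 on array 1 and Hoxc11 on array 2. Of the 7 HoxC genes 4 were above 0 on both arrays and none was below 0 on both.

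Hoxc4, a gene of the neck and upper trunk, had log2 signals of 11.35 and 11.41 in the control samples and 12.06 and 11.99 in those labelled NOGGIN. Both samples labelled NOGGIN lay above both controls. Its log2 ratio was 0.65 ± 0.09 (SD, n = 2), a fold of 1.57, with a 95% interval from 0.24 to 1.06 and an adjusted p of 0.372 by limma. It came close to the size rule: array 1 gave 0.717 and array 2 gave 0.584, against a threshold of 0.585. Here and below, overlap of the groups sets levels against each other across arrays, not within the pairs. The share of all genes without overlap was not counted, so overlap is a description only. It does not set apart the genes for which it is given. The groups of Hoxa2, Hoxb9, Hoxb13, Hoxc5, Hoxc6 and Hoxd8 did not overlap either.

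Hoxc9, which marks the thoracic region, had log2 signals of 11.07 and 11.13 in the control samples and 11.61 and 11.62 in those labelled NOGGIN. The groups did not overlap. Its log2 ratio was 0.52 ± 0.04 (SD, n = 2), with a 95% interval from 0.11 to 0.92 and a limma adjusted p of 0.553. Hoxc4 and Hoxc9 were the 2 genes with an unadjusted p under 0.05, at 0.00875 and 0.0209 in limma's test.

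Hoxc6, a gene of the shoulder and thorax, was uneven. Its control samples had log2 signals of 10.39 and 11.01 and those labelled NOGGIN 11.20 and 11.12. The control of array 1 was the lowest of these, and dye, array and sample cannot be told apart in that value. The ratio was 0.81 on array 1 and 0.11 on array 2. Hoxc5 had 0.29 ± 0.01 (SD, n = 2) from a dim probe. Hoxc8, whose probe was dimmer still, had 0.26 and -0.01, and its mean ran from 0.11 to 0.30 over the settings with both arrays. Beyond number 9 the ratios were smaller, with -0.12 and 0.11 for Hoxc10, known from the hindlimb region, and -0.10 and 0.28 for Hoxc11, whose probe lies in the homeobox shown above.

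Of the 9 HoxD genes 1 was above 0 on both arrays and 4 were below 0 on both. Hoxd11, which acts with Hoxa11 in the forming kidney, had log2 signals of 12.92 and 12.83 in the control samples and 12.58 and 12.47 in those labelled NOGGIN. Both samples labelled NOGGIN were below both controls. Its ratio was -0.35 ± 0.02 (SD, n = 2), with a 95% interval from -0.75 to 0.05 and a limma adjusted p of 0.948. The ratio is that of the brighter probe: the other probe of Hoxd11, 2878 bases away, had -0.32 on array 1 and 0.25 on array 2.

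Of the other HoxD genes, Hoxd13, a digit and hindgut gene, had ratios of -0.27 and -0.13, and its groups overlapped. Hoxd8 (-0.08 and -0.11) and Hoxd10 (-0.06 and -0.04) were close to 0 on both arrays. Hoxd9 had -0.27 and 0.01, and Hoxd12 had -0.18 and 0.24. At the head end, Hoxd1 had log2 signals of 10.52 on both arrays in the control samples and 10.83 and 10.90 in those labelled NOGGIN. Its groups did not overlap, with a ratio of 0.34 ± 0.05 (SD, n = 2) and a limma adjusted p of 0.968. Hoxd3 (0.20 and -0.25) and Hoxd4 (0.30 and -0.59) changed sign between the arrays.

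In HoxA the largest mean was that of Hoxa9, a gene also known from blood stem cells. Its log2 signals were 10.82 and 10.84 in the control samples and 11.18 and 11.21 in those labelled NOGGIN, which do not overlap. The ratio was 0.37 ± 0.02 (SD, n = 2), with a limma adjusted p of 0.903, and array 1 rests on 2 unflagged spots. The dimmer probe of Hoxa9 had 0.33 and -0.04. Hoxa5, a lung patterning gene, had 0.45 and 0.04. Hoxa3, a gene of the thymus and parathyroid, had 0.47 and -0.06, and its dimmer probe, 30063 bases away, had 0.53 and -0.68. Of the others, Hoxa2, a gene of the pharyngeal arches, had 0.25 and 0.03, and Hoxa4 had -0.13 and -0.05. Hoxa6 (-0.10 and 0.13) and Hoxa7 (0.17 and -0.26) had a different sign on each array.

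The genes of HoxA best known from the kidney and ureter gave no steady direction. Hoxa11 had log2 signals of 14.45 and 14.77 in the control samples and 14.85 and 14.28 in those labelled NOGGIN. Its groups overlapped, with ratios of 0.39 and -0.50. Hoxa10, a stromal patterning gene, had 0.42 and -0.38. Hoxa13 had -0.07 and 0.10, and its second probe, 124 bases away, had -0.01 and 0.13.

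In HoxB the means ran from -0.34 to 0.13. Hoxb8 was the lowest, with log2 signals of 13.07 and 13.38 in the control samples and 12.97 and 12.80 in those labelled NOGGIN. The groups did not overlap, but the ratio was -0.10 on array 1 and -0.58 on array 2, so its SD of 0.34 is as large as its mean. Hoxb13 had -0.05 and -0.56, with the limit on its signal given above, and its mean of -0.31 became -0.80 with the scanner's processed signals. Hoxb9 had -0.33 and -0.04, and Hoxb7, the ureteric bud gene, had -0.20 and 0.17.

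Of the head-end HoxB genes, Hoxb2 (0.37 and -0.33) was positive on array 1 and negative on array 2. Hoxb3 had -0.01 and 0.16 with its brighter probe. Hoxb4 had 0.10 and 0.15 (a mean of 0.02 with processed signals). Hoxb5 (0.22 and -0.13) and Hoxb6 (0.03 and -0.17) had a different sign on each array, with means near 0.

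The ratios were also set out by paralogue number. For numbers 4 and 9, members of different clusters lay on opposite sides of 0 on both arrays. In group 4, Hoxc4 had a mean of 0.65 and Hoxb4 of 0.13, against -0.09 for Hoxa4. In group 9, Hoxc9 (0.52) and Hoxa9 (0.37) lay above 0 and Hoxb9 (-0.19) below. In group 5 all 3 means lay above 0, from 0.04 to 0.29, and in group 10 all 3 lay between -0.05 and 0.02. The differences between paralogues were not tested. The medians over all clusters were 0.08 for numbers 1 to 4, 0.02 for numbers 5 to 8 and -0.03 for numbers 9 to 13.

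Since the dyes were exchanged, a stronger reading in 1 dye moves a gene's ratio in opposite directions on the 2 arrays. The sign turns only where that part is larger than the rest of the ratio. Spread around 0 can turn it too. Opposite signs were found for the 18 of 36 genes counted above, beside 56.3% of all genes. The part of the ratio that turned between the arrays ran from -0.45, for Hoxd4, to 0.21, for Hoxd12, as red over green. With 1 array for each dye order, dye, array and sample pair cannot be told apart in it. Hoxa11 (-0.44), Hoxa10 (-0.40) and Hoxb2 (-0.35) were also at the low end. Across the 36 genes, which share their arrays and are not replicates, the 2 arrays' ratios correlated at 0.20 (Pearson) and 0.09 (Spearman), beside 0.18 and -0.07 over all genes. Within an array the unflagged spots of a Hox probe had a median SD of 0.20 on array 1 and 0.24 on array 2.

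**Figure D3:**
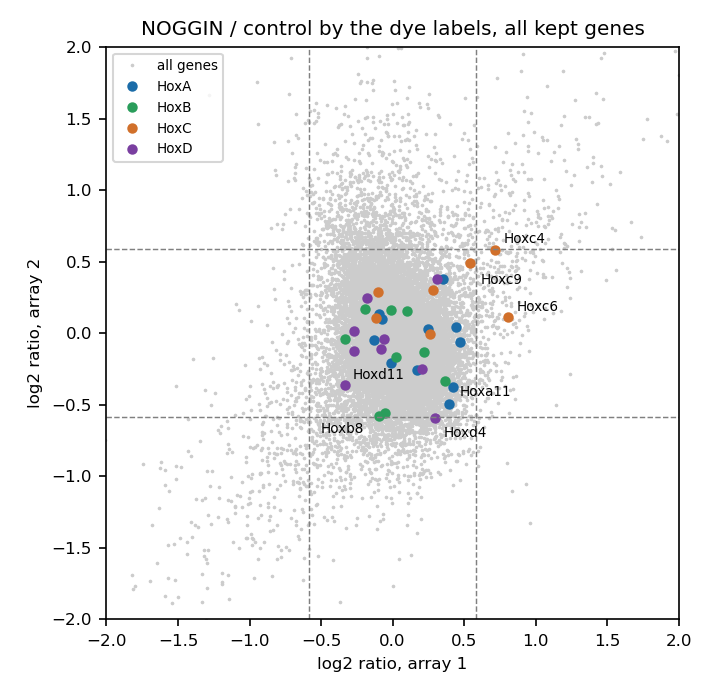
Log2 ratio on array 1 (horizontal axis) against array 2 (vertical axis) for all kept genes (grey, with 121 genes beyond the axes at 2) and the Hox genes by cluster (coloured). Dashed lines mark 1.5-fold; no Hox gene lies in the upper right or lower left corner, with Hoxc4 on the edge of the upper right one.

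On single arrays, 2 Hox genes were past 1.5-fold on array 1 (Hoxc4 and Hoxc6), beside 4.31% of all genes, and 1 on array 2 (Hoxd4, lower), beside 11.8%. None passed in opposite directions, beside 0.238% of all genes.

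Non-coding transcripts of the clusters were read by probes of their own. Hoxa11os, the antisense transcript at Hoxa11, had ratios of 0.45 and -0.46, against 0.39 and -0.50 for Hoxa11 itself. The probes of Hoxa3 and of Hoxaas2 overlap by 40 bases on opposite strands (chromosome 6, 52119087 to 52119146 and 52119107 to 52119166, mm9). They had ratios of 0.47 and -0.06 for Hoxa3 and of 0.19 and 0.17 for Hoxaas2. Hoxb5os had the lowest mean of these transcripts, -0.38 ± 0.27 (SD, n = 2). Hottip, at the tail end of HoxA, had -0.41 and 0.04 from a dim probe, and Haglr in HoxD had 0.19 and 0.03. Haglr was picked for its position after the values were seen.

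Of 15 kept neighbours and non-coding transcripts of the clusters, 0 were 1.5-fold higher on both arrays, beside 0.941% of all genes, and 2 were 1.5-fold lower, beside 1.25%. Evx1, a homeobox gene next to Hoxa13, had log2 signals of 10.04 and 9.98 in the control samples and 9.44 and 9.01 in those labelled NOGGIN. The groups did not overlap, and its ratio was -0.79 ± 0.27 (SD, n = 2; limma adjusted p = 0.313). Skap1, a signalling adaptor beside HoxB, had -0.73 ± 0.11 (limma adjusted p = 0.304) with its brightest probe. With its dimmest kept probe the mean was -0.06, so its call rests on 1 probe. Evx2, the counterpart of Evx1 beside Hoxd13, had -0.05 and 0.00.

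The cofactors of HOX proteins gave no call either. TALE homeodomain proteins of the PBX, MEIS and PKNOX families bind DNA together with HOX proteins. All 9 were kept, 0 passed 1.5-fold either way, and their ratios had a median of -0.10, from 0.10 on the first array and -0.32 on the second. Pknox1 (-0.38 ± 0.37, SD, n = 2), Pbx3 (-0.31 ± 0.37) and Meis2 (-0.31 ± 0.09) had the largest means, and only Meis2 of these was under -0.2 on both arrays. With the dimmest kept probe of each gene, Pknox1 had -0.10 and Pbx3 -0.07.

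Regulators of Hox transcription were mixed. Retinoic acid turns on Hox genes from the head end, and of 12 kept genes of its pathway and of the Cdx family 1 was 1.5-fold higher on both arrays, beside 0.941% of all genes, and 0 were lower, beside 1.25%. That gene was Cyp26a1, which breaks down retinoic acid, at 0.84 ± 0.13 (SD, n = 2, limma adjusted p = 0.223). Its probe was dim, with log2 signals of 7.10 and 7.05 in the control samples. The mean of Cyp26a1 was 1.47 with processed signals and 1.42 from the folds of the authors' deposited table, turned to follow the dye labels. Cyp26b1, of the same enzyme family, went the other way, with -0.47 on array 1 and -0.39 on array 2. Aldh1a3 (0.62 ± 0.57) and Aldh1a2 (-0.60 ± 0.31), which make retinoic acid, had opposite signs. Cdx2 and Cdx4 were below background.

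Polycomb and trithorax proteins keep Hox genes off and on. None of 15 kept Polycomb genes and none of 11 trithorax and chromatin genes passed 1.5-fold, with medians of -0.03 and -0.02. The largest Polycomb means were those of Phc1 (-0.25 ± 0.30, SD, n = 2), Ring1 (-0.20 ± 0.36) and Cbx2 (-0.16 ± 0.00356). The largest of the other list were those of Ash2l (-0.20 ± 0.37), Rbbp5 (0.20 ± 0.19) and Kdm6b (-0.16 ± 0.24). On single arrays the signs of Ring1, Ash2l and Kdm6b turned. With the dimmest kept probe Phc1 had 0.0057 and Ash2l -0.0024.

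Of the homeobox genes listed outside the clusters, 4 were kept and 1 was 1.5-fold lower on both arrays, beside 1.25% of all genes. Meox1, a mesodermal homeobox gene related to the Hox genes, had log2 signals of 10.16 and 10.58 in the control samples and 8.64 and 9.10 in those labelled NOGGIN. The groups did not overlap, and its ratio was -1.50 ± 0.04 (SD, n = 2; limma adjusted p = 0.0989). Meox2 had 0.25 ± 0.10, Gsx1 -0.28 ± 0.04 (-0.46 with processed signals) and En2 0.13 ± 0.07, and the other 6 of the 10 ParaHox and related genes were below background. Of 11 genes placed downstream of HOX in kidney and ureter, 1 was 1.5-fold higher, beside 0.941% of all genes, and 1 lower, beside 1.25%. These were Tbx18, a factor of the ureteric mesenchyme (0.77 ± 0.17), and Bmp4, a ligand that NOGGIN binds (-1.02 ± 0.12). Gdnf, a growth factor reported as a target of the group 11 genes, had -0.70 ± 0.20, with -0.56 on array 1.

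**Figure D4:**
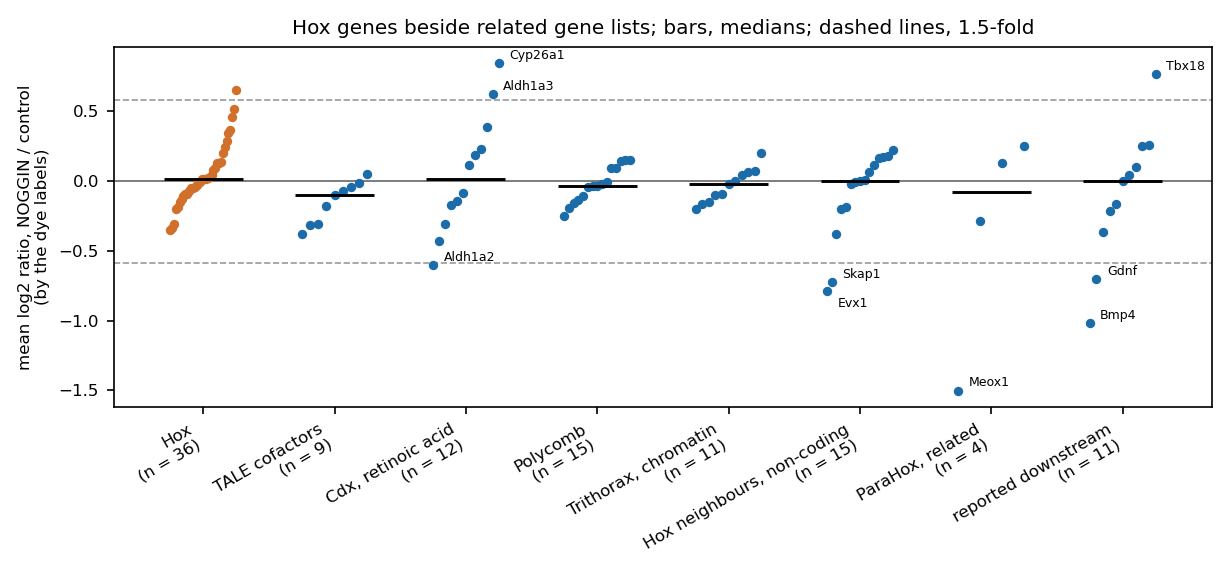
Mean log2 ratio (vertical axis) of the kept genes of 8 groups (horizontal axis, with the number of genes), Hox genes in orange and related lists in blue; black bars are medians and dashed lines 1.5-fold. The Hox means run from -0.35 to 0.65, and the lowest point, -1.50, is Meox1.

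Markers of the ureter's cell types were measured. All 13 urothelial and all 9 ureteric mesenchyme and smooth muscle markers were kept. Their medians were 0.07 and -0.57, from -0.98 for the lowest to 1.21 for the highest mesenchyme marker. That second list is split. On both arrays Sox9, Tbx18 and Tcf21 were above 0, and Acta2, Tagln, Myh11, Cnn1 and Aldh1a2 were below. Ptch1 had -0.56 on array 1 and 0.40 on array 2. All 7 nephron markers, all 4 endothelial and all 4 macrophage markers, and all 5 markers of limb and body wall were kept, with medians of -0.17, 0.17, -0.06 and -0.15. So were all 3 of kidney stroma (-0.22), all 3 of mesothelium (-0.35) and all 5 of neural cells (0.03). Kept as well were 3 red blood cell markers (0.05) and 2 of 4 gonad markers (-0.22). Among the mesothelium markers Upk3b, also on the urothelial list, had 0.89, and the other 2 were lower on both arrays. Of 5 skeletal muscle markers 3 were kept (median -1.53), and Myod1 and Myf5 were below background. The part of these cell types in the Hox values was not tested.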

How the data were processed

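The members and gene lists were chosen with earlier results of these data known. Per the file headers, the authors' scanner output gives an intensity per spot and channel on mouse build mm9, from Agilent Feature Extraction (10.7.3.1, per the submitters' processing notes), and a log10 ratio, red over green, of processed signals that the scanner software background-subtracted and dye-normalized. The authors also deposited a score per probe, a signed linear fold whose correlation with red over green on the log scale was 0.717 on array 1 and -0.800 on array 2; its normalization was not stated. Mean signals were background-corrected by normexp (offset 50) and normalized by loess (limma 3.58.1, R 4.3.3). By the labels, control RNA was red on array 1 and green on array 2. Both arrays lay on 1 slide. Control and outlier spots (3.36% and 3.09%) were left out and spots averaged; 0 spots were saturated. Samples' signals were scaled between arrays by Aquantile. The brightest kept probe stood for a gene. Non-Hox names were updated through RefSeq accessions (71.8% of probes matched; GRCm38.p6, names only). Ratios turned by the dyes entered lmFit and eBayes of limma (1 residual and 4.35 prior degrees of freedom) over 22311 features, adjusted by Benjamini-Hochberg. The fit was also run on ratios simulated from its own kind of model, which cannot show how well it suits these arrays. Named with values were the 3 largest absolute means of each cluster and list, and paralogues opposite in sign. Other Hox genes and Cyp26b1 were added after their values were seen. 1 gene's values and 1 probe's sequence and values are not reported here. Figures used matplotlib 3.10.9.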

Additional observations from a re-analysis of the deposited data

How the results depend on the processing

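The alternatives covered normalization and background correction, the dim-probe filter, outlier spots, which probe stood for a gene, the variance model, the call thresholds, the deposited fold table, and single arrays. The count of Hox genes past 1.5-fold stayed 0 in all 10 settings that use both arrays and was 1 to 2 with 1 array at a time. The count past an adjusted p stayed 0 in all 11 tested settings, with 0.314, for Hoxc4 with flagged spots kept, the lowest adjusted p. Over all genes that count was 35 with no background correction, 114 with median centring, 100 with all channels above background, 23 with flagged spots kept, 141 with trended and robust variance, and 0 in the other settings at 0.05. At an unadjusted p under 0.05 the Hox count ran from 0 of 36 with median centring, beside 2.56% of all genes, to 5 of 39 with no filter, beside 5.45%. The Hox median stayed within -0.024 and 0.0174 with both arrays and was between -0.0247 and 0.0641 with 1 array at a time. Genes kept ran from 35 to 39. Of 179 values of the 15 Hox genes that the naming rule took, 2 turned sign, both of Hoxa3: -0.0797 with its dimmer probe, and from -0.0612 to 0.47 on single arrays. This count does not measure the stability of the family. Most of these genes had the same sign on both arrays, so they could not turn on single arrays. Several settings also leave a gene with 1 probe unchanged. Outside the rule, Hoxa10 (from -0.03 to 0.05), Hoxa13, Hoxb2, Hoxb5, Hoxc10, Hoxd3 and Hoxd12 crossed 0 between settings with both arrays. Of 264 values of the 22 other genes that the rule took, with Id1 among them, 4 turned. These were Phc1 with its dimmest probe (0.0057), and on single arrays Ash2l (from -0.47 to 0.0607), Kdm6b (from -0.33 to 0.0059) and Ring1 (from -0.45 to 0.0611). Another 9 came under an adjusted p of 0.05 in limma: Id1 in 5 settings, Meox1 in 3 and Bmp4 in 1, with lowest adjusted p values of 0.0001158, 0.0237 and 0.0481. The causes were not tested. The number of arrays and the signal over background of probes such as that of Hoxb13 limit the precision. Each ratio pairs the 2 samples of an array, so the fit is paired by array and no further replicate block was added.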
